A study of Homo sapiens with 12 samples.

Results

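The gene expression of A549, a cell line from a human lung adenocarcinoma, was compared with that of MDA-MB-231, a cell line from a human breast carcinoma of the basal, hormone receptor negative kind. The comparison used 8 of the study's 12 mRNA sequencing libraries, chosen by their labels alone. Each of the 2 lines had been stably transduced, and selected with puromycin, with a control lentiviral vector or with one that expresses human MYC, and each was kept for 48 h in DMSO or in tipifarnib, an inhibitor of protein farnesyltransferase. This gave 4 states a line (control vector with DMSO, control vector with tipifarnib, MYC vector with DMSO, MYC vector with tipifarnib), with 1 library in each, so that A549 and MDA-MB-231 form 4 matched pairs. Tipifarnib was used at 10 µM in A549 and at 20 µM in MDA-MB-231. The other 4 libraries were of SKOV3, an ovarian cancer line treated in the same way at 20 µM, and served for context. No state of a line was labelled as repeated. The 4 libraries of a line are therefore 4 treatments of 1 line, and the p-values take in the spread among these libraries alone. One line stands for each tissue, and what belongs to the tissue, the tumour and the single line cannot be told apart.

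A cell line keeps part of the gene program of its tissue of origin and adds the effects of its own mutations. A549 is known for mutated STK11, SMARCA4 and KEAP1. Loss of KEAP1 frees NRF2, the transcription factor that switches on detoxifying and antioxidant enzymes. MDA-MB-231 is known for mutated BRAF and NF2 and for a spindle-shaped, mesenchymal and invasive phenotype.

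The 8 libraries held from 20481363 to 26962994 counts in genes, and another 17.5% to 19.9% of all counts fell in reads that were not assigned to 1 gene. Levels are given as CPM, the count of a gene scaled to the library's total counts and TMM factor, and always in the order of the 4 states above. The RNA is of whole cultures, so fewer cells with a transcript and less of it per cell cannot be told apart. Differences are log2 of A549 over MDA-MB-231 ± the standard error of the fit, and a gene was called higher or lower where its adjusted p was under 0.05. Of 15264 genes tested, 4620 (30.3%) were higher in A549 and 4471 (29.3%) were lower, in all 59.6%. Counts of called members in each gene list below are to be read against these shares. The stricter class of genes that were called and at least 2-fold apart in the same direction in all 4 pairs held 3355 genes (22%), of which 1967 (12.9%) were higher in A549 and 1388 (9.09%) were lower. Of these 3355 genes, 2756 code for proteins. In 527 of the 1967, MDA-MB-231 had 3 counts or fewer in every library, and in 210 of the 1388, A549 had. The median log2 ratio over all genes tested was 0.01.

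ALDH1A1, a retinaldehyde dehydrogenase that makes retinoic acid, had 8366, 7878, 8783 and 9212 CPM in A549, against 2.53, 0.184, 0.47 and 0.65 CPM in MDA-MB-231 (log2 difference 13.37 ± 0.65, adjusted p = 2.43e-05). No state of either line came near the other line. AKR1B10, an aldo-keto reductase, had 2903, 1515, 1433 and 1381 CPM in A549, against 0.0477, 0.598, 0.0427 and 0.253 CPM in MDA-MB-231. UCHL1, a neuronal ubiquitin hydrolase, had 509, 733, 549.2 and 675 CPM in A549, against 0.0953, 0, 0.0854 and 0.0722 CPM in MDA-MB-231. CNTN1, a contactin of neuronal membranes, had 804, 570.4, 775 and 543 CPM in A549, against 0.191, 0.092, 0.128 and 0.144 CPM in MDA-MB-231. For these 4 genes every A549 library was far above every MDA-MB-231 library, but they were picked as genes with large ratios in all 4 states. CEACAM6, a surface glycoprotein of epithelia, had 387, 357, 339 and 1021 CPM in A549, against 0, 0, 0 and 0.144 CPM in MDA-MB-231. CPLX2, a complexin of synaptic vesicle release, had 1195, 205, 609 and 184 CPM in A549, against 0, 0, 0.128 and 0.0361 CPM in MDA-MB-231, and its A549 level was several times lower in both tipifarnib libraries. PRAME, a cancer-testis antigen, had 156, 108, 115 and 109 CPM in A549, against 0, 0, 0 and 0 CPM in MDA-MB-231 (at least 786-fold higher in every state and 939-fold on the mean over states, against a floor of 3 counts per library, adjusted p = 7.24e-05). Others among the 15 highest in A549 were TCIM, CXCL5, GCNT3, AKR1C2, GPX2, NETO2 and KCTD15, with A549 means from 136 to 1818 CPM.

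On the other side, MT1E, a metallothionein that binds zinc and copper, had 0.349, 0, 0.164 and 0 CPM in A549, against 376, 628, 546 and 646 CPM in MDA-MB-231. FGF5, a fibroblast growth factor, had 0, 0, 0.0411 and 0.0902 CPM in A549, against 297, 134, 285 and 157 CPM in MDA-MB-231 (adjusted p = 4.13e-06). COL13A1, a transmembrane collagen, had 0.305, 0.906, 0.123 and 0.361 CPM in A549, against 383, 215, 289 and 189.7 CPM in MDA-MB-231. None of the 3 genes, picked in the same way, overlapped between the lines in any state. CD74, the invariant chain of antigen presentation, had 0.349, 0.0906, 1.77 and 0.271 CPM in A549, against 379, 342, 140.2 and 129 CPM in MDA-MB-231. Within MDA-MB-231 it was lower in both MYC vector libraries. RAC2, a small GTPase best known in blood cells, had 0.0436, 0, 0.123 and 0 CPM in A549, against 57, 75.6, 55.1 and 59.6 CPM in MDA-MB-231. PRDX2, a peroxiredoxin found in most cells, had 0.131, 0, 0.123 and 0.0451 CPM in A549, against 44.2, 37.1, 48.6 and 33.2 CPM in MDA-MB-231, while the SKOV3 libraries had from 26.7 to 60.8 CPM. KISS1, the metastasis suppressor kisspeptin, had 0.0872, 0.0453, 0 and 0.135 CPM in A549, against 42.8, 16.7, 71.7 and 29.1 CPM in MDA-MB-231. The other genes among the 15 lowest were SLC17A9, SLC43A3, PTX3, ARMCX2, ACSL5, SFTA1P, GPAT2 and GNA15, with MDA-MB-231 means from 37.8 to 101 CPM.

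**Figure D1:**
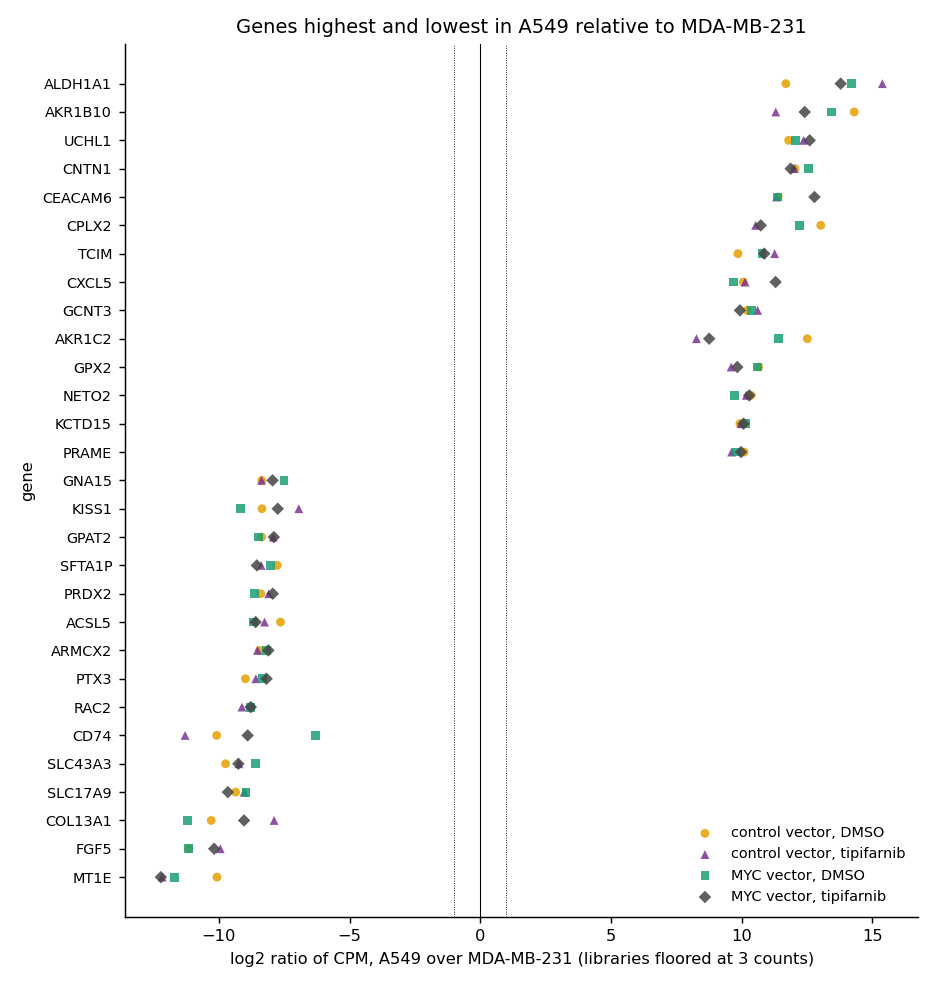
Log2 ratio of CPM, A549 over MDA-MB-231, in each of the 4 states (markers) for genes among the 15 highest and the 15 lowest in A549, with every library floored at 3 counts and dotted lines at a 2-fold difference. The genes were chosen among those at least 2-fold apart in the same direction in all 4 states. All 4 markers of a gene therefore lie on the same side of 0 by choice. The markers of CD74, AKR1C2, ALDH1A1 and COL13A1 spread the most.

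The labelled tissues were checked against defining markers. Of 20 alveolar and airway markers, 11 were too low to test, among them the surfactant genes SFTPA1, SFTPA2, SFTPB, SFTPC and SFTPD and the lung factor NKX2-1, and no library of either line exceeded 1.16 CPM in any of the 11. SFTPC had 0.0436, 0.0453, 0.0821 and 0.0902 CPM in A549, against 0, 0, 0 and 0 CPM in MDA-MB-231. The surfactants that define alveolar type II cells were thus near absent from A549 as well. Of the 9 that were tested, 4 were higher in A549 (ABCA3, LAMP3, MUC5AC and MUC5B), 1 was lower (ETV5) and 4 did not pass. ABCA3, the lipid transporter of lamellar bodies, had 61, 122, 33 and 117 CPM in A549, against 14.8, 32.4, 14.5 and 48.1 CPM in MDA-MB-231 (log2 difference 1.61 ± 0.17, adjusted p = 0.000405). It was higher in A549 in each state, but the ranges of the lines overlapped. ETV5, an ETS factor of alveolar type II cells, had 65.6, 84.8, 80.9 and 64.5 CPM in A549, against 118, 105, 106 and 113 CPM in MDA-MB-231 (log2 difference -0.59 ± 0.13, adjusted p = 0.0067). MUC5B, a secreted airway mucin, had 36.5, 54.5, 93.6 and 203 CPM in A549, against 2.38, 0.368, 1.07 and 0.289 CPM in MDA-MB-231 (log2 difference 6.44 ± 0.81, adjusted p = 0.000719). MUC5AC, another, had 15.2, 18.1, 45.5 and 157 CPM in A549, against 0.763, 0.69, 0.299 and 0.253 CPM in MDA-MB-231 (log2 difference 6.37 ± 0.80, adjusted p = 0.000719). Both mucins were highest in the A549 library with MYC and tipifarnib. Of the hormone receptors, PGR had 0 counts in all 8 libraries and ESR1 had 0.131, 0.0906, 0 and 0.226 CPM in A549, against 0, 0.276, 0.0854 and 0.181 CPM in MDA-MB-231, while SKOV3 had from 27.7 to 85.9 CPM. PAX8, the factor that marks SKOV3, had from 0.657 to 1.31 CPM in A549 and from 2.18 to 8.51 CPM in MDA-MB-231, against 174 to 271 CPM in SKOV3. Of the 5 ovarian markers that were tested, 3 were higher in A549, 1 was lower and 1 did not pass. Of 8 white blood cell markers, 7 were too low to test, with at most 0.575 CPM in any library of the 2 lines, PTPRC among them. The eighth, CD14, a receptor of monocytes for bacterial lipopolysaccharide, was higher in A549, with 8.85, 4.39, 2.96 and 1.44 CPM in A549, against 1.24, 0.092, 0.811 and 0.144 CPM in MDA-MB-231 (adjusted p = 0.00297). Of 8 fibroblast markers 5 were too low to test, with at most 6.0 CPM, COL1A1 and COL3A1 were higher in A549 and PDGFRB was lower. Of 6 endothelial markers with a row 3 were too low to test, with at most 1.15 CPM, CDH5 and EGFL7 were higher in A549 and KDR was lower, with an adjusted p of 0.0712 to 0.0967 without 1 of 3 pairs. The highest mean of these 6 in either line was that of EGFL7, with 42.7 ± 6.87 CPM in A549 and 24.1 ± 1.24 CPM in MDA-MB-231 (SD over 4 states).

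Luminal mammary genes that differed were all higher in the lung line: 10 of 17 tested members were higher in A549, 0 were lower and 7 did not pass (median log2 ratio 0.90). AGR2, a secretory disulfide isomerase, had 401, 207, 753 and 711 CPM in A549, against 1.76, 0.874, 0.982 and 0.65 CPM in MDA-MB-231 (log2 difference 8.84 ± 0.46, adjusted p = 3.11e-05). FOXA1, a pioneer factor of luminal breast and of endoderm, had 49.3, 40.6, 120.0 and 71.9 CPM in A549, against 2.81, 3.13, 4.14 and 6.43 CPM in MDA-MB-231 (log2 difference 4.04 ± 0.25, adjusted p = 5.61e-05). SPDEF, an ETS factor of secretory epithelia, had 20.6, 10.8, 31 and 24.4 CPM in A549, against 2, 2.39, 1.07 and 0.722 CPM in MDA-MB-231 (log2 difference 3.82 ± 0.52, adjusted p = 0.00103). The ranges of the lines did not overlap for any of the 3, but they were picked among the called members with the largest ratios. KRT19 did not pass, with 215, 303, 69 and 365 CPM in A549, against 167, 519.9, 86.3 and 342 CPM in MDA-MB-231. Basal mammary genes went both ways, as did all genes tested (30.3% higher in A549, 29.3% lower). Of 13 tested basal members 6 were higher in A549, 4 were lower and 3 did not pass. EGFR, the epidermal growth factor receptor, had 211, 293, 83.1 and 160.4 CPM in A549, against 594, 762, 499.8 and 668 CPM in MDA-MB-231 (log2 difference -1.88 ± 0.21, adjusted p = 0.000484). LAMB3, a laminin of the basement membrane under epithelia, had 41.4, 64.6, 61 and 135 CPM in A549, against 486, 560.0, 337 and 421 CPM in MDA-MB-231 (log2 difference -2.70 ± 0.31, adjusted p = 0.000533). TP63, the master factor of basal epithelium, had 15.3, 15.2, 4.85 and 4.96 CPM in A549, against 0.191, 0.322, 0.214 and 0.0722 CPM in MDA-MB-231 (adjusted p = 6.92e-05), so EGFR and LAMB3 were lower and TP63 higher in the lung line.

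Epithelial identity rests on junction proteins such as E-cadherin, whose genes are shut off by the ZEB, SNAI and TWIST repressors when cells turn mesenchymal. For the list of epithelial junction and identity genes, 15 of 22 tested members were higher in A549, 5 were lower and 2 did not pass (median log2 ratio 1.57). CDH1, E-cadherin, had 42.2, 30.6, 32.4 and 59.1 CPM in A549, against 0.143, 0.092, 0 and 0.0361 CPM in MDA-MB-231 (adjusted p = 1.85e-05). ELF3, an epithelial ETS factor, had 111, 114, 114 and 132 CPM in A549, against 0.334, 3.13, 0.512 and 2.09 CPM in MDA-MB-231 (log2 difference 6.47 ± 0.51, adjusted p = 0.000125). JUP, plakoglobin, had 266, 364, 396 and 359 CPM in A549, against 20.0, 31.6, 13 and 24.1 CPM in MDA-MB-231 (log2 difference 4.01 ± 0.25, adjusted p = 5.82e-05). For all 3 the lowest A549 library was above the highest MDA-MB-231 library, but they were picked among the called members with the largest ratios. CLDN3, a claudin of tight junctions, was low in A549, with 4.97, 3.99, 1.36 and 3.29 CPM in A549, against 0, 0, 0 and 0 CPM in MDA-MB-231 (at least 10.6-fold higher in every state and 23.8-fold on the mean over states, against a floor of 3 counts per library, adjusted p = 0.00153). In the other direction, ESRP2, an epithelial splicing regulator, had 0.0872, 0.408, 0.164 and 0.451 CPM in A549, against 1.43, 3.54, 1.62 and 3.76 CPM in MDA-MB-231 (adjusted p = 0.00035). GRHL2, OVOL1, OVOL2, RAB25, ST14, SPINT1, PRSS8 and MARVELD3 were too low to test in both lines, with at most 3.25 CPM, so A549 lacked part of the epithelial program too.

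The sequence CAGGTG, the E-box bound by ZEB and SNAI repressors, was searched on both strands of the 300 bases around each start site (250 before and 50 after, RefSeq, GRCh38.p14). It was found in 7 of the 14 tested epithelial genes that had a promoter in the table (50%) and in 20.6% of all 35116 promoters. CRB3, a polarity protein that had 7.45, 5.8, 5.26 and 6.59 CPM in A549, against 0.0477, 0.644, 0.171 and 0.722 CPM in MDA-MB-231 (adjusted p = 0.00125), held it 5 times in the 250 bases before its start, which are shown with the E-boxes in capitals because no other tested epithelial promoter held as many.
CRB3 (chr19:6464021-6464270, plus strand): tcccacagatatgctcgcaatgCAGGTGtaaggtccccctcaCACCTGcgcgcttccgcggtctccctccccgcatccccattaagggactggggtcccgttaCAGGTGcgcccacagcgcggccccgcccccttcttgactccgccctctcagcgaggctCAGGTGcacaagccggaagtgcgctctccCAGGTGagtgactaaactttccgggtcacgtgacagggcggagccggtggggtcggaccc

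Of all genes tested, 30.3% were higher in A549 and 29.3% lower. Among mesenchymal genes calls also went both ways: 10 of 28 tested members were higher in A549, 11 were lower and 7 did not pass (median log2 ratio -0.54). By state the median was -0.325, 0.128, -1.468 and -0.728, so its sign was not the same in all 4. VIM, vimentin, had 366, 485, 185 and 239.6 CPM in A549, against 1397, 1155, 1086 and 887 CPM in MDA-MB-231 (log2 difference -1.91 ± 0.21, adjusted p = 0.000393). ZEB1, a repressor of E-cadherin, had 34.6, 45.5, 40.1 and 32.7 CPM in A549, against 123, 123, 106 and 141 CPM in MDA-MB-231 (log2 difference -1.69 ± 0.14, adjusted p = 0.000168). The receptor kinase AXL had 246, 335, 47.6 and 122 CPM in A549, against 1723, 1236, 1095 and 942 CPM in MDA-MB-231 (log2 difference -3.02 ± 0.41, adjusted p = 0.00101). All 3 were lower in A549 in every state, though A549 expressed each of them; VIM and ZEB1 were named after their values were seen. TNC, the matrix protein tenascin C, had 4.58, 2.36, 0.246 and 0.361 CPM in A549, against 121, 127, 80.2 and 123 CPM in MDA-MB-231 (log2 difference -6.27 ± 0.62, adjusted p = 0.000291). Its A549 level was lowest in both MYC vector libraries. By contrast, N-cadherin (CDH2), a textbook mesenchymal marker, had 94.3, 82.7, 43.7 and 27.5 CPM in A549, against 0.381, 0.092, 0.384 and 0.217 CPM in MDA-MB-231 (adjusted p = 2.43e-05). S100A4, also called fibroblast-specific protein, had 342, 316, 218 and 479 CPM in A549, against 8.29, 19.7, 4.27 and 8.24 CPM in MDA-MB-231 (log2 difference 5.22 ± 0.35, adjusted p = 7.2e-05). TWIST1, a repressor, had 2.22, 4.76, 5.87 and 7.26 CPM in A549, against 0.0477, 0, 0 and 0 CPM in MDA-MB-231 (adjusted p = 0.000173). A549 was thus higher in both E-cadherin and N-cadherin, and MDA-MB-231 had next to no counts of either. CAV1, caveolin 1, did not pass, with 578, 470.5, 173 and 278 CPM in A549, against 710.4, 245, 503 and 149 CPM in MDA-MB-231, and the order of the lines changed between DMSO and tipifarnib.

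**Figure D2:**
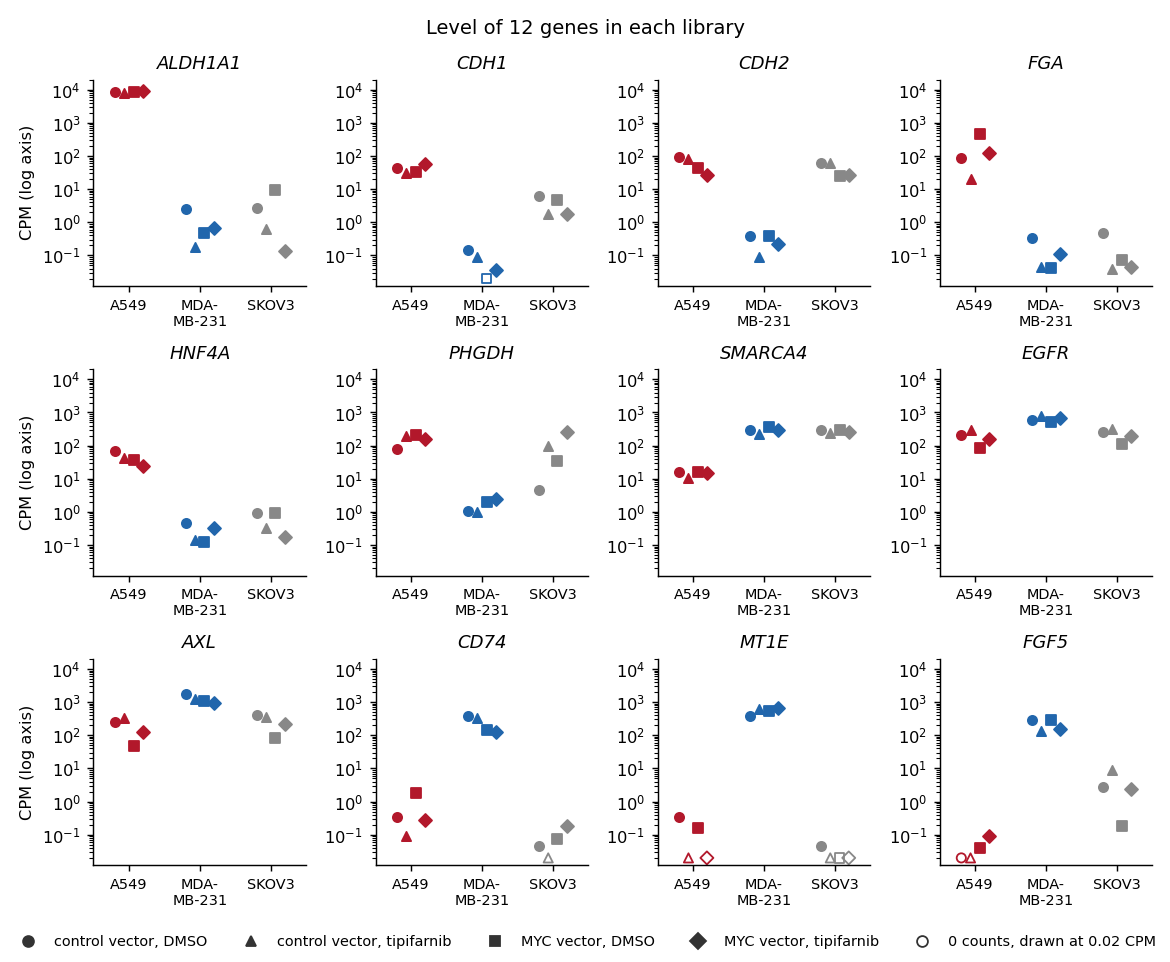
CPM of 12 genes (log axis) in the 4 libraries of A549, MDA-MB-231 and SKOV3, with a marker for each state and open markers for libraries with 0 counts. CDH1 and CDH2 are both higher in the A549 libraries than in the MDA-MB-231 libraries, and SMARCA4, EGFR, AXL, CD74, MT1E and FGF5 are lower in A549 in every state.

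NRF2 binds antioxidant response elements and drives glutathione synthesis, NADPH production and the reduction of reactive carbonyls. Of 33 tested NRF2 targets, 28 were higher in A549 and 0 were lower, and 19 were at least 2-fold higher in all 4 states (median log2 ratio 2.0). AKR1C2, a steroid and carbonyl reductase, had 2791, 1165, 2097 and 1221 CPM in A549, against 0.477, 3.77, 0.769 and 2.82 CPM in MDA-MB-231 (log2 difference 9.88 ± 0.83, adjusted p = 0.000157). GPX2, a glutathione peroxidase, had 306, 107, 336 and 198 CPM in A549, against 0.191, 0.046, 0.214 and 0.217 CPM in MDA-MB-231 (adjusted p = 1.84e-06). ABCC2, an exporter of glutathione conjugates, had 402, 376, 354 and 355 CPM in A549, against 1.05, 3.68, 1.92 and 4.84 CPM in MDA-MB-231 (log2 difference 7.12 ± 0.42, adjusted p = 4.48e-05). The lines were far apart in every state, and AKR1C2 and ABCC2 were higher in the tipifarnib libraries of MDA-MB-231 than in its DMSO libraries. NR0B1, an orphan nuclear receptor, had 39.3, 27.4, 70.4 and 58.9 CPM in A549, against 0, 0, 0 and 0 CPM in MDA-MB-231 (at least 199-fold higher in every state and 357-fold on the mean over states, against a floor of 3 counts per library, adjusted p = 0.000135). The ferritin genes FTL and FTH1 did not pass, and FTL had 6288, 4135, 8479.7 and 5496 CPM in A549, against 1401, 4244, 2154 and 5204 CPM in MDA-MB-231. AKR1C1, AKR1C2 and AKR1C3 are close copies, and FTL and FTH1 have many pseudogenes, so how reads were split among the copies bears on each value. KEAP1 itself, the inhibitor of NRF2, had 96.4, 72.4, 108 and 85.6 CPM in A549, against 133, 103, 116 and 83.3 CPM in MDA-MB-231 (log2 difference -0.26 ± 0.12, adjusted p = 0.11).

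The core letters of the antioxidant response element, TGACNNNGC, were found on either strand in the promoters of 6 of 22 tested NRF2 targets (27.3%) and in 13.3% of all promoters. Shown are the 250 bases before the start of GPX2, the NRF2 target with the smallest p, and of TXNRD1, thioredoxin reductase, an abundant one chosen after its values were seen, with the matches in capitals. A second match in TXNRD1 crosses its start and is not shown. TXNRD1 had 2238, 2549.6, 4162 and 4091 CPM in A549, against 688, 2089.5, 785 and 2337 CPM in MDA-MB-231 (log2 difference 1.30 ± 0.34, adjusted p = 0.0156), and without the pair of control vector and DMSO it did not pass (adjusted p = 0.0615).
GPX2 (chr14:64942746-64942995, minus strand): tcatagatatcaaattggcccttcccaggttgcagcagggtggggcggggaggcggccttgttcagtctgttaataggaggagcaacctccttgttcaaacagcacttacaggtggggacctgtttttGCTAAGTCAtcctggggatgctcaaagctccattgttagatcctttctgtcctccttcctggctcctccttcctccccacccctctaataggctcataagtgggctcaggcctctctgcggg
TXNRD1 (chr12:104215529-104215778, plus strand): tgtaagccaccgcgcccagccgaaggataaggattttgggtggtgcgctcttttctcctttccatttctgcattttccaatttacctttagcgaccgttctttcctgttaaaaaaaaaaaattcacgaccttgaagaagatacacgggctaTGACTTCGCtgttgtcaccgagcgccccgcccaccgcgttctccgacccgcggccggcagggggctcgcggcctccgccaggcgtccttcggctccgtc

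Enzymes of aldehyde, steroid and xenobiotic metabolism, a list that shares members with the NRF2 targets, were mostly higher in A549: 23 of 30 tested members were higher in A549, 2 were lower and 5 did not pass (median log2 ratio 3.85). ALDH3A1, an aldehyde dehydrogenase of cornea and of smoke-exposed airway, had 1070.3, 825, 365 and 1206 CPM in A549, against 10.3, 10.3, 2.78 and 3.36 CPM in MDA-MB-231 (log2 difference 7.10 ± 0.41, adjusted p = 4.34e-05). CES1, the liver carboxylesterase, had 8.98, 5.35, 113 and 182 CPM in A549, against 0, 0, 0 and 0 CPM in MDA-MB-231 (at least 38.8-fold higher in every state and 245-fold on the mean over states, against a floor of 3 counts per library, adjusted p = 0.000114), and its A549 level was higher in both MYC vector libraries. CYP4F3, a hydroxylase of leukotriene B4, had 20.6, 15.1, 34.2 and 24.3 CPM in A549, against 0.0477, 0.046, 0 and 0 CPM in MDA-MB-231. Lower in A549 were CYP1A1, the dioxin-inducible monooxygenase, with 0.436, 0.77, 0.739 and 1.71 CPM in A549, against 6, 16.4, 6.66 and 23.6 CPM in MDA-MB-231 (log2 difference -3.78 ± 0.27, adjusted p = 8.68e-05), and GSTM3, a glutathione transferase, with 8.5, 6.43, 3.16 and 4.24 CPM in A549, against 22.9, 23.7, 25.4 and 25.1 CPM in MDA-MB-231 (log2 difference -2.20 ± 0.28, adjusted p = 0.0008). Neither gene overlapped between the lines.

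Most endoderm factors and proteins that the liver secretes were also higher in A549: 15 of 24 tested members were higher in A549, 3 were lower and 6 did not pass (median log2 ratio 2.88). The 3 chains of fibrinogen, the clotting protein, were among them. FGA had 85.1, 19.6, 464 and 124 CPM in A549, against 0.334, 0.046, 0.0427 and 0.108 CPM in MDA-MB-231. FGB had 99.9, 21.3, 443 and 99.5 CPM in A549, against 1, 0.184, 0 and 0.144 CPM in MDA-MB-231. FGG had 55.3, 17.8, 622 and 150.0 CPM in A549, against 0.381, 0.046, 0.128 and 0.0722 CPM in MDA-MB-231. All 3 chains were highest in the A549 library with MYC and DMSO and lowest in that with the control vector and tipifarnib, and near 0 in every MDA-MB-231 library. HNF4A, the hepatocyte nuclear factor, had 68.7, 41.4, 37.9 and 24.2 CPM in A549, against 0.477, 0.138, 0.128 and 0.325 CPM in MDA-MB-231 (adjusted p = 2e-05). GATA4, a factor of early endoderm and heart, had 5.71, 5.3, 4.48 and 5.68 CPM in A549, against 0.0953, 0, 0 and 0 CPM in MDA-MB-231. FOXA2, in contrast, was lower in A549, with 51.8, 35.4, 46.7 and 16.3 CPM in A549, against 60.3, 61.2, 65.5 and 73.5 CPM in MDA-MB-231 (log2 difference -0.90 ± 0.31, adjusted p = 0.0423). FOXA2 did not pass without the pair of control vector and tipifarnib or that of MYC and DMSO (adjusted p 0.0526 and 0.0882). ALB, albumin, did not pass and was low in both lines, with 7.45, 6.43, 3.24 and 4.92 CPM in A549, against 10.4, 2.85, 6.19 and 8.05 CPM in MDA-MB-231. The half-site of the liver factor HNF1, GTTAAT, was found on either strand in the promoters of 3 of 17 tested members (17.6%) and in 6.9% of all promoters. The 3 were FGA, FGB and ALB, of which ALB did not pass. FGA and FGB are shown because the match lies about as far from the start in both, with the half-site in capitals.
FGA (chr4:154590743-154590992, minus strand): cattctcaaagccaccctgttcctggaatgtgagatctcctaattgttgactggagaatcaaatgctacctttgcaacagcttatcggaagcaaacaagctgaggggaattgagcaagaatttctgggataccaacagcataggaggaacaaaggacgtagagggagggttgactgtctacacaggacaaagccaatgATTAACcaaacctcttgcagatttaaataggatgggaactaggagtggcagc
FGB (chr4:154562730-154562979, plus strand): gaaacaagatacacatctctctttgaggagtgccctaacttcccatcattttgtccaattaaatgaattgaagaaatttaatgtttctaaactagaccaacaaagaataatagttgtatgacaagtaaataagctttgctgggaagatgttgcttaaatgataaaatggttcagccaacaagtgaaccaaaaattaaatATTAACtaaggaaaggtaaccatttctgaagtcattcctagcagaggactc

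**Figure D3:**
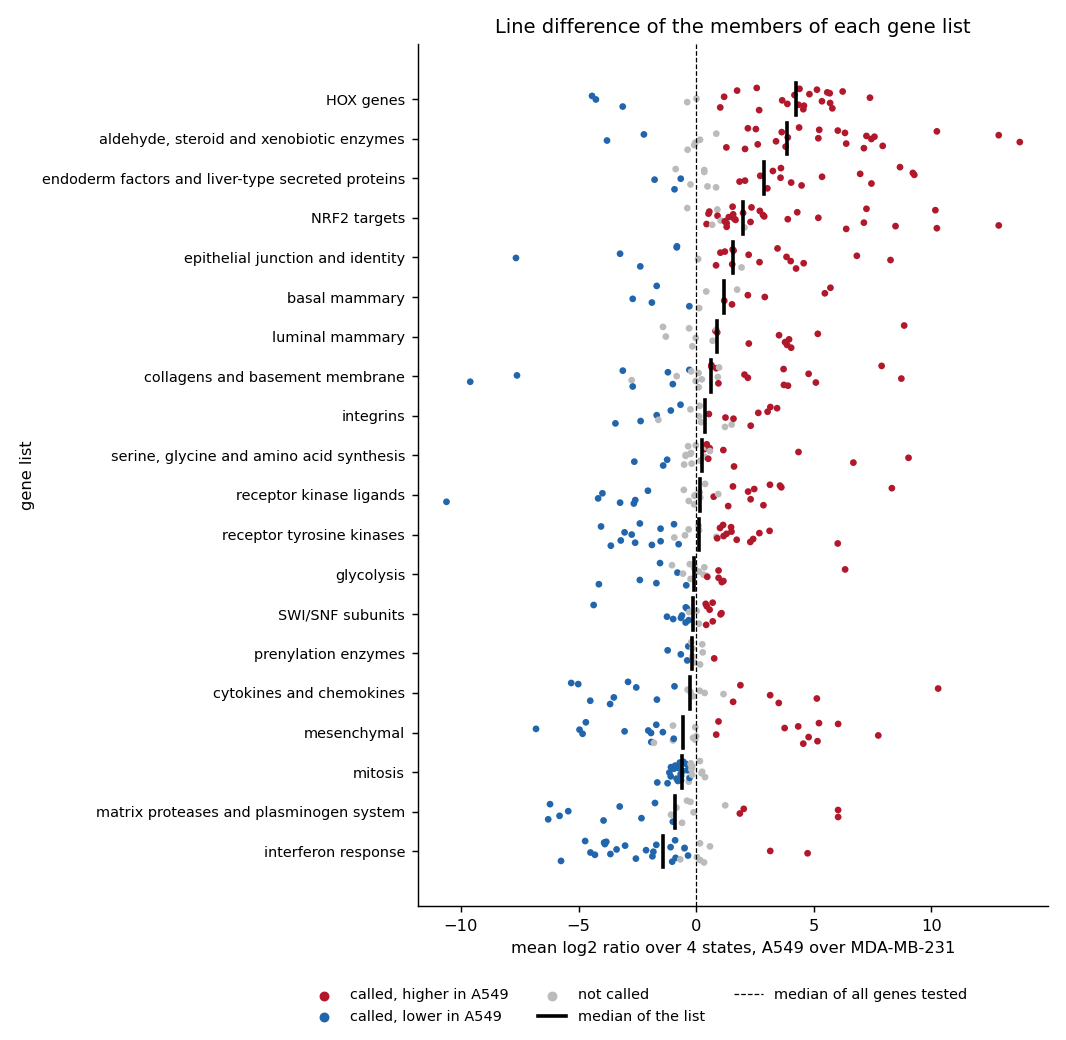
Mean log2 ratio over the 4 states, A549 over MDA-MB-231, for each tested member (points) of 20 gene lists, coloured by call, with the median of each list as a bar and that of all genes tested as a dashed line. HOX genes have the highest median and interferon response genes the lowest, and most lists hold members on both sides of 0.

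Genes known to be mutated or deleted in 1 of the lines gave a check on the labels. SMARCA4, the ATPase of the SWI/SNF chromatin remodeller that A549 is known to lack, had 16.4, 10.8, 16.2 and 14.8 CPM in A549, against 304, 218, 378 and 300.0 CPM in MDA-MB-231 (log2 difference -4.36 ± 0.11, adjusted p = 2.85e-06). NF2, the tumour suppressor merlin that MDA-MB-231 is known to lack, had 51.1, 56.4, 37.2 and 45.5 CPM in A549, against 24.8, 13, 17.7 and 10.3 CPM in MDA-MB-231 (log2 difference 1.59 ± 0.24, adjusted p = 0.00146). Both differed in the direction of the known lesion in every state. Differences were smaller in others. STK11, the kinase LKB1, mutated in A549, had 58.1, 62.2, 52.9 and 68.6 CPM in A549, against 103, 101, 97.2 and 83.3 CPM in MDA-MB-231 (log2 difference -0.67 ± 0.12, adjusted p = 0.00366). BRAF, a kinase of the MAP kinase cascade, had 21.4, 25.2, 20.6 and 21 CPM in A549, against 24.9, 28.2, 24.7 and 30.7 CPM in MDA-MB-231 (log2 difference -0.30 ± 0.12, adjusted p = 0.0763). BRAF did not pass. The neighbours CDKN2A, CDKN2B and MTAP were too low to test, with at most 0.305 CPM in any of the 8 libraries, and MTAP reached 22.9 to 35.9 CPM in SKOV3.

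Of the 20 SWI/SNF subunits, 8 were higher in A549, 9 were lower and 3 did not pass. SMARCA4 and ACTL6A alone among the 20 were at least 2-fold apart in all 4 states. Of all genes tested, 30.3% were higher and 29.3% lower, and 22% were called and at least 2-fold apart in all 4 states. ACTL6A had 86, 59.1, 75.9 and 68 CPM in A549, against 183, 137, 194 and 167 CPM in MDA-MB-231 (log2 difference -1.24 ± 0.09, adjusted p = 0.000101). SMARCA2, the alternative ATPase, named after its values were seen, had 75.2, 72.3, 64.2 and 58.8 CPM in A549, against 107, 85.3, 77.3 and 69.2 CPM in MDA-MB-231 (log2 difference -0.31 ± 0.09, adjusted p = 0.0266). Both ACTL6A and SMARCA2 were lower in A549, far less so than SMARCA4, and SMARCA2 did not pass without the pair of control vector and DMSO, that of control vector and tipifarnib or that of MYC and tipifarnib (adjusted p from 0.0585 to 0.152).

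HOX genes lie in 4 clusters and set position along the body axis in the embryo, and adult cells keep a HOX code of their site. Of 26 tested HOX genes, 21 were higher in A549, 3 were lower and 2 did not pass (median log2 ratio 4.27). HOXA3 had 26.6, 14.4, 35.8 and 16 CPM in A549, against 0, 0, 0 and 0 CPM in MDA-MB-231 (at least 104-fold higher in every state and 168-fold on the mean over states, against a floor of 3 counts per library, adjusted p = 0.000266). HOXA5 had 5.54, 5.66, 8.87 and 6.86 CPM in A549, against 0, 0, 0.0427 and 0 CPM in MDA-MB-231 (adjusted p = 5.81e-05). Other HOXA genes also had 0 or few counts in MDA-MB-231. HOXB13 had 11.7, 9.83, 7.76 and 9.83 CPM in A549, against 0, 0, 0 and 0 CPM in MDA-MB-231 (at least 60.6-fold higher in every state and 75.2-fold on the mean over states, against a floor of 3 counts per library, adjusted p = 0.00059). Its neighbour in the cluster HOXB9 did not pass, with 22.8, 47.7, 86.7 and 62.8 CPM in A549, against 54.5, 54.4, 74.6 and 76.3 CPM in MDA-MB-231. HOXB9 thus overlapped between the lines. In the HOXD cluster the order turned within the cluster. HOXD8 had 5.75, 11.1, 4.19 and 7.44 CPM in A549, against 0, 0, 0 and 0 CPM in MDA-MB-231 (at least 32.7-fold higher in every state and 52-fold on the mean over states, against a floor of 3 counts per library, adjusted p = 0.000793). HOXD1 had 0, 0.0453, 0.0821 and 0 CPM in A549, against 1.67, 3.72, 1.49 and 4.3 CPM in MDA-MB-231 (adjusted p = 0.000522). HOXD3 had 0.131, 0.0906, 0 and 0 CPM in A549, against 2, 4.09, 1.92 and 4.01 CPM in MDA-MB-231 (adjusted p = 0.000734). HOXD1, HOXD3 and the third member that was lower in A549, HOXD4, are neighbours.

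**Figure D4:**
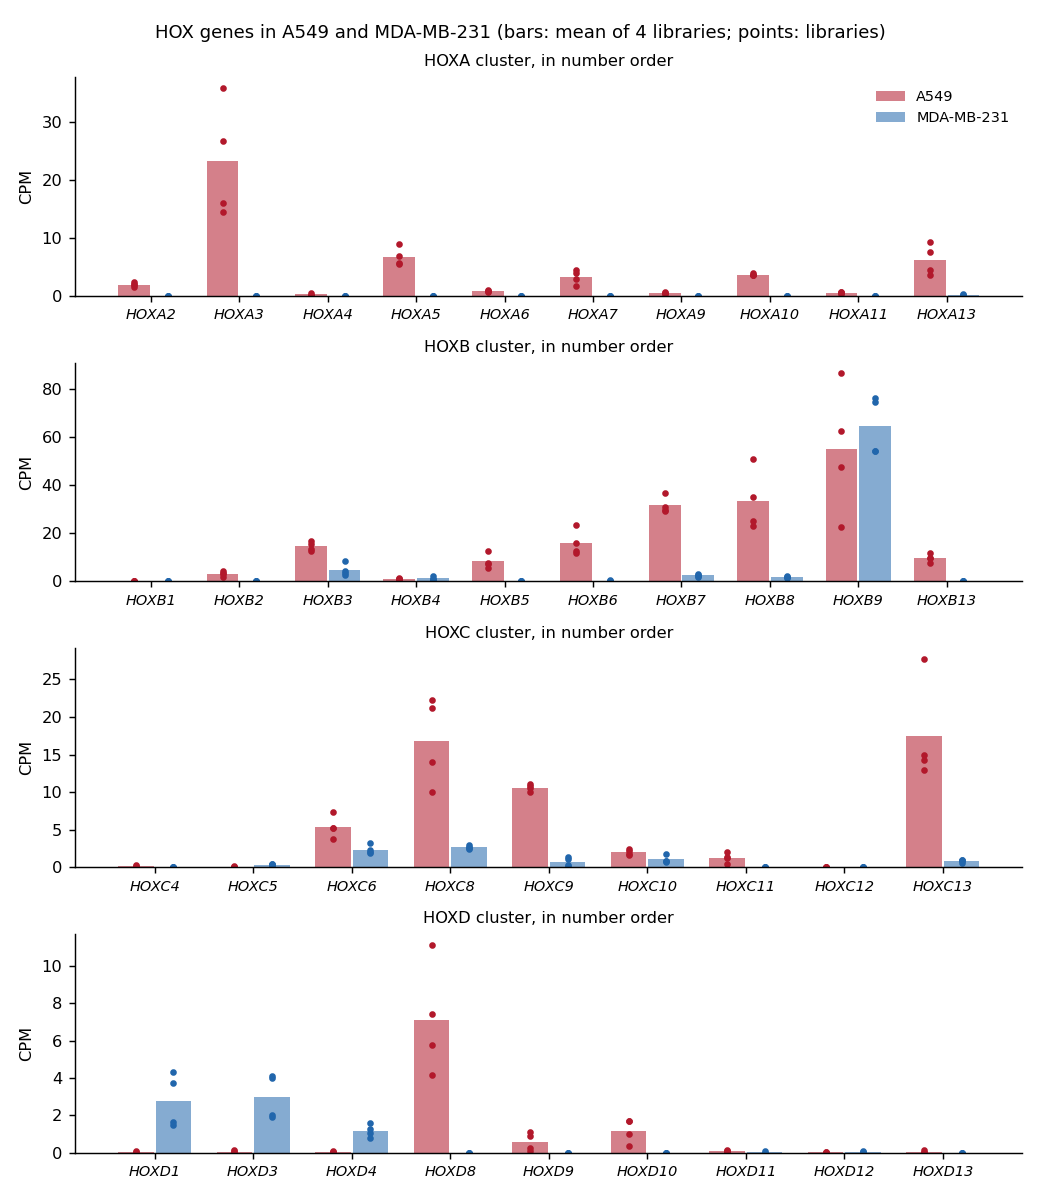
CPM of HOX genes of each cluster in A549 (left of each pair) and MDA-MB-231 (right), with bars for the mean of 4 libraries and points for the libraries, and a linear axis from 0. HOXA genes are at or near 0 in MDA-MB-231, HOXB9 is expressed in both lines, and HOXD1, HOXD3 and HOXD4 are near 0 in A549.

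Genes that were at least 2-fold apart in all 4 states also came as neighbours on the chromosome. Of 14872 tested genes with a place in the annotation, 272 lay in runs of 4 or more neighbouring tested genes that all held the same direction, 39 runs higher in A549 and 17 lower. The longest run was 12 protocadherin genes from PCDHA1 to PCDHB6, all higher in A549, of which 10 had 3 counts or fewer in every MDA-MB-231 library; PCDHA genes share exons, so these counts are not independent. The HOXA run held 10 genes and ended at HOXA13. A run of 9 genes of a keratin cluster reached from KRT7 to KRT18. KRT7 had 1882, 3024, 1029 and 2239 CPM in A549, against 14.2, 12.7, 12.6 and 19.1 CPM in MDA-MB-231 (log2 difference 7.04 ± 0.30, adjusted p = 1.54e-05). KRT81, a hair keratin with close copies nearby, had 4229, 5391, 4611 and 5082 CPM in A549, against 57.6, 139.7, 34.7 and 58.4 CPM in MDA-MB-231 (log2 difference 6.24 ± 0.33, adjusted p = 3.14e-05). All 9 genes of the run were higher in A549. Another run held the 6 genes from AKR1E2 to AKR1C4, all of the aldo-keto reductase family where annotated.

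A run of 6 genes higher in A549, from FOCAD to DMRTA1, flanks the CDKN2A locus. KLHL9, an adaptor of a ubiquitin ligase, had 68.3, 69, 54.1 and 59.3 CPM in A549, against 0.0477, 0, 0 and 0.108 CPM in MDA-MB-231. FOCAD, focadhesin, had 67.2, 77.6, 73.5 and 69.5 CPM in A549, against 3.38, 3.36, 2.99 and 4.05 CPM in MDA-MB-231 (log2 difference 4.39 ± 0.14, adjusted p = 5.26e-06). In MDA-MB-231 5 of the 6 genes had 3 counts or fewer in every library, and CDKN2A and MTAP, which lie between them, were near 0 in both lines. The longest runs lower in A549 were mostly of zinc finger genes: 8 genes from ZNF441 to ZNF844, 7 from ZNF506 to ZNF826P and 7 from ZNF528-AS1 on, the last holding ZNF83. ZNF83 had 0.174, 0.0453, 0.493 and 0.541 CPM in A549, against 16.3, 21.1, 14.9 and 21.1 CPM in MDA-MB-231. ZNF433, of the first run, had 0, 0, 0 and 0 CPM in A549, against 1.33, 1.38, 1.2 and 1.52 CPM in MDA-MB-231 (at least 9.71-fold lower in every state and 10.3-fold on the mean over states, against a floor of 3 counts per library, adjusted p = 0.00333). SKOV3 had from 81.6 to 152 CPM of ZNF83. Zinc finger genes have near copies, so the split of reads among them is uncertain.

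The lists of matrix, adhesion and receptor genes below are to be read against the 30.3% of all tested genes that were higher in A549 and the 29.3% that were lower. For matrix proteases and the plasminogen system, 4 of 20 tested members were higher in A549, 9 were lower and 7 did not pass. MMP14, the membrane-bound collagenase, had 2.96, 3.99, 7.1 and 3.29 CPM in A549, against 409, 392, 214 and 243 CPM in MDA-MB-231 (log2 difference -6.19 ± 0.40, adjusted p = 6.05e-05). PLAT, tissue plasminogen activator, had 6.58, 4.85, 1.27 and 2.84 CPM in A549, against 142, 312, 98.3 and 259 CPM in MDA-MB-231 (log2 difference -5.76 ± 0.39, adjusted p = 7.21e-05). MMP1, interstitial collagenase, had 0, 0.0453, 0.0411 and 0 CPM in A549, against 4.29, 8.87, 8.84 and 32.9 CPM in MDA-MB-231 (adjusted p = 5.79e-05). All 3 were far lower in A549. MMP2, gelatinase A, had 13.7, 34, 3.37 and 5.46 CPM in A549, against 0.143, 0, 0 and 0.181 CPM in MDA-MB-231 (adjusted p = 0.000429). MMP7, matrilysin, had 23.6, 19.3, 2.34 and 4.78 CPM in A549, against 0, 0, 0 and 0.0361 CPM in MDA-MB-231 (adjusted p = 6.4e-05). MDA-MB-231 had next to no counts of these, and the A549 levels were lower with MYC.

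For collagens and basement membrane genes, 13 of 29 tested members were higher in A549, 7 were lower and 9 did not pass. COL5A2, a fibrillar collagen, had 386, 291, 722 and 545 CPM in A549, against 1.72, 2.62, 1.41 and 2.2 CPM in MDA-MB-231 (log2 difference 7.87 ± 0.38, adjusted p = 2.43e-05). COL4A6, a basement membrane collagen, had 151, 203, 63.3 and 99.4 CPM in A549, against 0.334, 0.046, 0.598 and 0.217 CPM in MDA-MB-231. COL8A1, a short-chain collagen, had 0, 0, 0.0411 and 0 CPM in A549, against 93.2, 19.4, 35.2 and 6.93 CPM in MDA-MB-231. The first pair was higher in A549 and COL8A1 lower, with no overlap, but all 3 were picked among the called members with the largest ratios. For integrins, 8 of 20 tested members were higher in A549, 5 were lower and 7 did not pass. The leukocyte integrin chain ITGB2 had 2.96, 2.31, 1.44 and 1.17 CPM in A549, against 11.5, 32.6, 14.3 and 29.1 CPM in MDA-MB-231 (log2 difference -3.41 ± 0.44, adjusted p = 0.000801). ITGA1, a collagen receptor, had 3.31, 2.49, 8.01 and 6.22 CPM in A549, against 30.3, 23.1, 20.8 and 19.6 CPM in MDA-MB-231 (log2 difference -2.33 ± 0.38, adjusted p = 0.00209). Both were lower in A549.

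For receptor tyrosine kinases, 13 of 31 tested members were higher in A549, 12 were lower and 6 did not pass, and for their ligands 11 of 27 tested members were higher in A549, 7 were lower and 9 did not pass. FLT4, the receptor of VEGF-C, had 10.3, 6.3, 10.7 and 7.04 CPM in A549, against 0, 0.138, 0 and 0.0722 CPM in MDA-MB-231. PTK7, a pseudokinase of Wnt signalling, had 11.9, 5.98, 5.05 and 2.3 CPM in A549, against 77.2, 58.5, 75.9 and 55.7 CPM in MDA-MB-231 (log2 difference -3.58 ± 0.31, adjusted p = 0.000174). FLT4 was higher in A549 and PTK7 lower. ERBB2, the HER2 receptor, had 123, 113, 128 and 113 CPM in A549, against 65.1, 77.7, 58.7 and 56 CPM in MDA-MB-231 (log2 difference 0.90 ± 0.12, adjusted p = 0.000914), while SKOV3 had 1176 to 5887 CPM. Among the ligands, HBEGF, which binds EGFR, had 2.22, 3.76, 5.26 and 7.49 CPM in A549, against 70.8, 65.7, 74.5 and 59.3 CPM in MDA-MB-231 (log2 difference -3.94 ± 0.32, adjusted p = 0.000136), lower in A549 as was its receptor. Other ligands of EGFR went both ways. TGFA was also lower in A549 (log2 difference -1.97 ± 0.36, adjusted p = 0.00348). Higher in A549 were AREG (2.83 ± 0.32, adjusted p = 0.00051), BTC (3.14 ± 0.44, adjusted p = 0.00111) and EREG (1.37 ± 0.34, adjusted p = 0.0129). FGF2, basic fibroblast growth factor, had 56.2, 82.1, 28.5 and 36.7 CPM in A549, against 0.0477, 0.046, 0.214 and 0 CPM in MDA-MB-231. FGF2 and FGF5 were each expressed by 1 of the lines and near 0 in the other. VEGFA did not pass, with 35.6, 76.5, 76.8 and 60.5 CPM in A549, against 77, 129, 55.9 and 97 CPM in MDA-MB-231. The low count filter also removed a receptor and a ligand that were high in part of the A549 libraries, named after their values were seen. NTRK3, the receptor of neurotrophin 3, had 45.8, 12.7, 2.96 and 0.271 CPM in A549, against 0, 0.23, 0 and 0 CPM in MDA-MB-231. HGF, the ligand of MET, had 0.959, 0.272, 27.8 and 21.4 CPM in A549, against 0, 0, 0 and 0 CPM in MDA-MB-231. A549 had most NTRK3 with the control vector and DMSO and most HGF with MYC, while MDA-MB-231 was at or near 0.

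Interferons induce a set of antiviral genes through the interferon-stimulated response element. Of 30 tested interferon response genes, 2 were higher in A549, 21 were lower and 7 did not pass, and 13 were at least 2-fold lower in all 4 states (median log2 ratio -1.39). IFITM3, a membrane protein that blocks virus entry, had 10.2, 9.06, 7.35 and 14.3 CPM in A549, against 143, 274, 235 and 275 CPM in MDA-MB-231 (log2 difference -4.49 ± 0.24, adjusted p = 3.14e-05). IFIT3, of the IFIT family that binds viral RNA, had 4.31, 5.98, 2.18 and 5.37 CPM in A549, against 37.4, 447, 18.5 and 148 CPM in MDA-MB-231 (log2 difference -4.35 ± 0.58, adjusted p = 0.000942). IFI44 had 0.131, 0.861, 0.164 and 0.541 CPM in A549, against 9.2, 54.3, 6.92 and 23.9 CPM in MDA-MB-231 (adjusted p = 1.21e-05). IFIT3 and IFI44 were several times higher in the tipifarnib than in the DMSO libraries of MDA-MB-231. The 2 members that went the other way were the oligoadenylate synthetases OAS1, with 19.7, 16.7, 20.5 and 36.5 CPM in A549, against 0.572, 6.07, 0.0854 and 1.08 CPM in MDA-MB-231 (adjusted p = 0.00528), and OAS3, with 124, 76.2, 77.9 and 88 CPM in A549, against 14.4, 28.7, 4.91 and 5.06 CPM in MDA-MB-231 (log2 difference 3.15 ± 0.47, adjusted p = 0.00151). These enzymes activate RNase L. Neither overlapped between the lines. OAS2, the third member of the family, had 0.174, 0.272, 0.123 and 0.812 CPM in A549, against 7.1, 36.2, 1.62 and 5.45 CPM in MDA-MB-231 (adjusted p = 0.00182).

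The core of the response element, TTTCNNTTT, was found on either strand in 18 of 24 promoters of tested members (75.0%) and in 10.5% of all promoters. Shown, with matches in capitals, are the 250 bases before the start of IFIT1 and ISG15, chosen after their values were seen as members lower in A549, and of OAS1 as a member that was higher. ISG15, a ubiquitin-like modifier, had 3.62, 3.13, 1.03 and 4.51 CPM in A549, against 19.2, 144, 17.2 and 51.8 CPM in MDA-MB-231 (log2 difference -3.86 ± 0.50, adjusted p = 0.00081). IFIT1 had 2.92, 1.72, 1.07 and 2.62 CPM in A549, against 7.96, 210.4, 4.36 and 76.2 CPM in MDA-MB-231 (log2 difference -3.94 ± 0.99, adjusted p = 0.0129). Without the pair of MYC and tipifarnib, IFIT1 did not pass (adjusted p = 0.0642). IFIT1 holds 3 matches, ISG15 2 that overlap and OAS1 1.
IFIT1 (chr10:89392373-89392622, plus strand): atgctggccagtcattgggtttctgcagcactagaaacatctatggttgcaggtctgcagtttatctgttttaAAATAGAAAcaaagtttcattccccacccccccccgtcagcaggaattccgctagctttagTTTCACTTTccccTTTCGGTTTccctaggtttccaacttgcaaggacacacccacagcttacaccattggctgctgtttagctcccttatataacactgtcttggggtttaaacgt
ISG15 (chr1:1013247-1013496, plus strand): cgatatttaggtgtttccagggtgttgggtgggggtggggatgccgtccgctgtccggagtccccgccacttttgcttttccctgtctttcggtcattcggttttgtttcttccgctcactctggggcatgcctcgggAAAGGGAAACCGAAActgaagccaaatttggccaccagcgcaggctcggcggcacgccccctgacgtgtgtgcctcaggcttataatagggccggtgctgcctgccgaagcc
OAS1 (chr12:112906712-112906961, plus strand): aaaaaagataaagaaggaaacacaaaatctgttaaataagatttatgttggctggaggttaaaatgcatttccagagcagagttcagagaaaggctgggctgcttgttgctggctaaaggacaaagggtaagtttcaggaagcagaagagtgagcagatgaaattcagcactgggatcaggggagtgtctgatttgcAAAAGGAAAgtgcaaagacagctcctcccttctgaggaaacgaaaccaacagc

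For cytokines and chemokines, 6 of 21 tested members were higher in A549, 9 were lower and 6 did not pass (all genes tested: 30.3% higher, 29.3% lower). CXCL5, a neutrophil attractant, had 153, 155, 105 and 273 CPM in A549, against 0, 0.046, 0.0427 and 0.0361 CPM in MDA-MB-231. CXCL16, a membrane-bound chemokine, had 29.9, 24.8, 32.9 and 37.9 CPM in A549, against 0.572, 0.414, 0.897 and 2.85 CPM in MDA-MB-231 (log2 difference 4.97 ± 0.40, adjusted p = 0.000131). IL24, a cytokine of the IL10 family, had 0, 0, 0 and 0 CPM in A549, against 1.14, 22.8, 0.641 and 19.2 CPM in MDA-MB-231 (at least 5.2-fold lower in every state and 32.3-fold on the mean over states, against a floor of 3 counts per library, adjusted p = 0.000741). The first pair was higher in A549. IL24 was high in the tipifarnib libraries of MDA-MB-231. IL1B, interleukin 1 beta, had 0.0872, 0.0453, 0.0411 and 0 CPM in A549, against 3.86, 11.3, 1.49 and 11.3 CPM in MDA-MB-231 (adjusted p = 0.000239).

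Central metabolism differed in single genes. Of 24 genes of serine, glycine and amino acid synthesis, 9 were higher in A549, 3 were lower and 12 did not pass (all genes tested: 30.3% higher, 29.3% lower). PHGDH, the first enzyme of serine synthesis, had 80.9, 196, 211 and 163 CPM in A549, against 1.05, 0.966, 1.96 and 2.42 CPM in MDA-MB-231 (log2 difference 6.65 ± 0.28, adjusted p = 1.54e-05). CBS, which makes cystathionine from homocysteine and serine, had 44.8, 99.5, 123 and 83.5 CPM in A549, against 0.191, 0.23, 0 and 0.0722 CPM in MDA-MB-231. PSAT1, the next step after PHGDH, did not pass, with 294, 558, 833 and 519.6 CPM in A549, against 332, 471, 393 and 407 CPM in MDA-MB-231. So the entry step of the pathway had few counts in MDA-MB-231 while the step after it was present in both lines. In glycolysis, 6 of 22 tested members were higher in A549, 6 were lower and 10 did not pass. Both counts were near the shares over all genes tested (30.3% and 29.3%). SLC16A1, the monocarboxylate transporter MCT1, had 99.7, 103, 173 and 129 CPM in A549, against 1.1, 1.61, 0.897 and 3.4 CPM in MDA-MB-231 (log2 difference 6.23 ± 0.38, adjusted p = 5.23e-05). HK1, hexokinase 1, had 78, 65.2, 115 and 91.6 CPM in A549, against 251.1, 298, 240.2 and 322 CPM in MDA-MB-231 (log2 difference -1.69 ± 0.18, adjusted p = 0.000415). HK2, the hexokinase of growing cells, had 1.53, 1.68, 106 and 44.9 CPM in A549, against 165, 131, 244 and 218 CPM in MDA-MB-231 (log2 difference -3.84 ± 1.09, adjusted p = 0.0206). HK2 was near absent in A549 with the control vector and present with MYC, and without either control vector pair its line difference did not pass (adjusted p 0.0539 and 0.0542).

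Mitotic genes were lower in A549 by a small amount: 0 of 30 were higher, 20 were lower and 10 did not pass, and 2 of the 20 were at least 2-fold lower in all 4 states (median log2 ratio -0.60). NDC80, of the outer kinetochore, had 26.1, 15.6, 23.6 and 12.2 CPM in A549, against 73.6, 44.4, 69.9 and 49.8 CPM in MDA-MB-231 (log2 difference -1.65 ± 0.13, adjusted p = 0.000118). BUB1B, a spindle checkpoint kinase, had 75.2, 42.7, 68 and 55.2 CPM in A549, against 154, 87.5, 154 and 115 CPM in MDA-MB-231 (log2 difference -1.08 ± 0.09, adjusted p = 0.000136). Both were lower in tipifarnib than in DMSO in each line. The rate of growth of the cultures was not measured. Of 17 reference genes used for normalisation, 4 were higher and 4 were lower in A549, none of them 2-fold in all 4 states (median log2 ratio -0.10). Of all genes tested, 30.3% were higher and 29.3% lower. ACTB, beta actin, did not pass, with 4346, 4213, 3201 and 3668 CPM in A549, against 3546, 2570.4, 4096 and 2303 CPM in MDA-MB-231, while GAPDH had 3253, 2379, 3153 and 3014 CPM in A549, against 1767, 1309, 1843 and 1214 CPM in MDA-MB-231 (log2 difference 0.96 ± 0.12, adjusted p = 0.00069).

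The target of the drug and the introduced gene were followed in each line. FNTA, the shared alpha subunit of farnesyltransferase, had 33.9, 42.2, 26.9 and 37.4 CPM in A549, against 23, 30.0, 28.2 and 35.7 CPM in MDA-MB-231 (log2 difference 0.26 ± 0.14, adjusted p = 0.155). FNTB, the beta subunit, had 14.7, 10.4, 12.4 and 9.47 CPM in A549, against 7.34, 5.89, 7.3 and 6.72 CPM in MDA-MB-231 (log2 difference 0.77 ± 0.17, adjusted p = 0.00822). Of 12 genes of prenylation, 1 was higher in A549 (FNTB), 4 were lower and 7 did not pass (all genes tested: 30.3% higher, 29.3% lower). FDPS, farnesyl diphosphate synthase, had 35.3, 25.9, 28.3 and 49.6 CPM in A549, against 56.9, 87.6, 66.7 and 110.3 CPM in MDA-MB-231 (log2 difference -1.21 ± 0.17, adjusted p = 0.00124). MYC had 104, 143, 889 and 497 CPM in A549, against 146, 351, 703 and 1593 CPM in MDA-MB-231 (log2 difference -0.79 ± 0.32, adjusted p = 0.0729). MYC was higher with the MYC vector in both lines, and in MDA-MB-231 it was higher in tipifarnib than in DMSO with either vector.

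Whether tipifarnib or MYC changed the distance between the lines was tested as an interaction in all 12 libraries, each line with its own effects. With tipifarnib the line difference changed in 277 of 16456 genes (1.68%), 138 with a shift of the ratio towards A549 and 139 towards MDA-MB-231; with MYC it changed in 376 (2.28%), 185 towards A549 and 191 towards MDA-MB-231. Of the 3355 genes at least 2-fold apart in all states, 83 (2.47%) changed with tipifarnib and 129 (3.85%) with MYC. Since the doses were 10 and 20 µM, line and dose cannot be told apart in the tipifarnib result. No transduction was labelled as repeated. In the MYC result, MYC and other differences between the separately selected control and MYC vector cells of a line therefore cannot be told apart. Without any single MDA-MB-231 library the tipifarnib count was 3 to 6 and the MYC count 35 to 68, and without any single A549 library 103 to 548 and 193 to 464.

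NRF2 targets were among the genes that changed with tipifarnib. In 16 of 34 members (34 pass the filter over 12 libraries) the line difference changed, each time towards MDA-MB-231, and the median change over the list was -1.06. All 16 were higher in tipifarnib than in DMSO in both MDA-MB-231 pairs, and 12 were lower in both A549 pairs. HMOX1, heme oxygenase, had 104, 131, 63.1 and 49.5 CPM in A549, against 11.6, 176, 13.2 and 129 CPM in MDA-MB-231 (change -3.60 ± 0.29, adjusted p = 0.00192). AKR1C1 had 327, 171, 226 and 201 CPM in A549, against 1.81, 22.3, 1.96 and 17.6 CPM in MDA-MB-231 (change -3.93 ± 0.34, adjusted p = 0.00233). GCLM, a subunit of the enzyme that starts glutathione synthesis, had 236, 200.1, 285 and 186 CPM in A549, against 95.5, 164, 86.4 and 148 CPM in MDA-MB-231 (change -1.20 ± 0.22, adjusted p = 0.0343). In HMOX1 the order of the lines turned, with A549 higher in DMSO and lower in tipifarnib; the 3 genes were chosen after their values were seen. The median log2 ratio of the 33 tested members was 2.60 and 2.49 in DMSO with the control and the MYC vector, and 1.21 and 1.65 in tipifarnib. Without any single MDA-MB-231 library, 1 to 3 members passed, and without any single A549 library 13 to 16.

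Other lists held fewer such genes. Of 33 interferon response genes, 6 changed with tipifarnib, all towards MDA-MB-231, and IFIT2 had 3.01, 5.75, 1.89 and 7.71 CPM in A549, against 14.9, 406, 7.22 and 141 CPM in MDA-MB-231 (change -3.07 ± 0.33, adjusted p = 0.0057). All 6 were higher in tipifarnib in both MDA-MB-231 pairs, and 4 were also higher in both A549 pairs. In 7 of 29 collagen and basement membrane genes the difference changed towards A549. All 7 were lower in tipifarnib in both MDA-MB-231 pairs, and 6 were higher in tipifarnib in both A549 pairs. COL7A1, the anchoring fibril collagen, had 226, 299, 36.5 and 73.9 CPM in A549, against 48.6, 29.7, 31.6 and 13.3 CPM in MDA-MB-231 (change 1.68 ± 0.25, adjusted p = 0.0156). For the tipifarnib change in the interferon and collagen lists, 0 members passed without any single MDA-MB-231 library. With MYC the difference changed in 8 of the 29 collagen and basement membrane genes, 2 towards A549 and 6 towards MDA-MB-231. This count also rests on single libraries: over all genes the MYC count was 376, and 35 to 68 without any single MDA-MB-231 library. IFIT2 and COL7A1 were named after their values were seen.

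**Figure D5:**
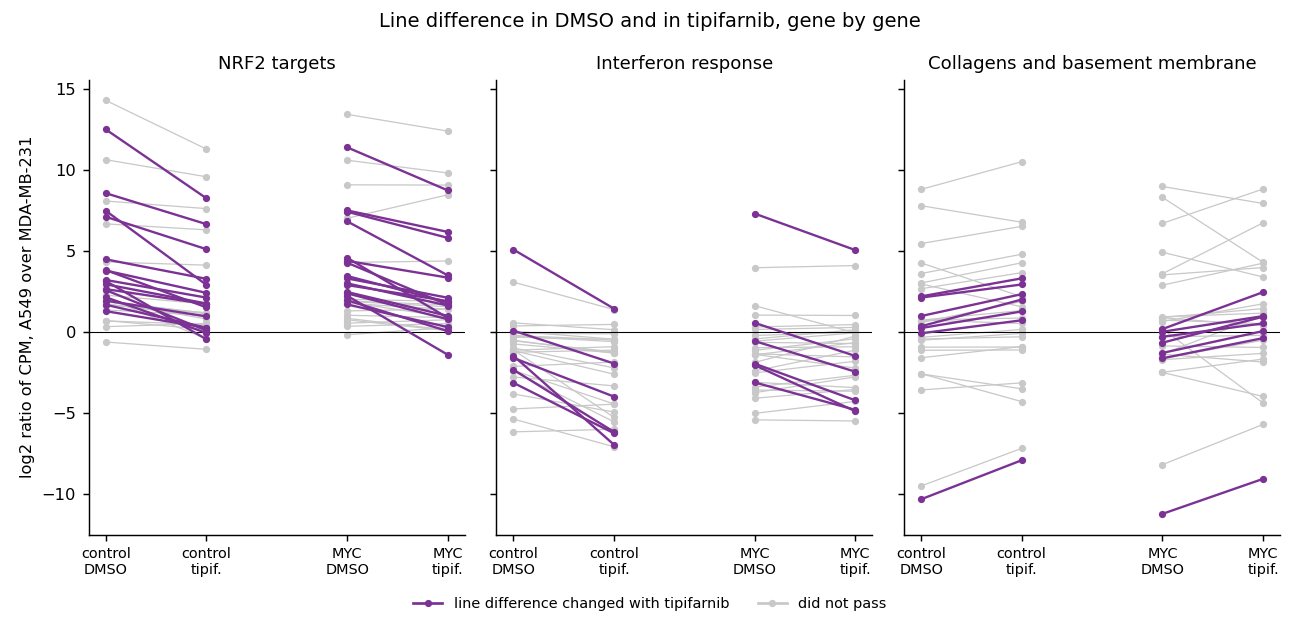
Log2 ratio of CPM, A549 over MDA-MB-231, in DMSO and in tipifarnib with the control vector (left pair of each panel) and the MYC vector (right pair), 1 line a gene, for tested NRF2 targets, interferon response genes and collagen and basement membrane genes. Coloured lines are genes whose line difference changed with tipifarnib; they fall in the first 2 panels and climb in the third.

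Single genes changed by more. S100P, a calcium-binding protein, had 17, 18.7, 213 and 275 CPM in A549, against 0.953, 20.7, 1.2 and 58.6 CPM in MDA-MB-231 (change -4.87 ± 0.53, adjusted p = 0.0057). In MDA-MB-231 it was many times higher in tipifarnib with either vector. RIMS2, a synaptic protein, had 0.0872, 0.589, 0.0821 and 0.541 CPM in A549, against 53.3, 29.2, 47.4 and 23.3 CPM in MDA-MB-231 (change 3.61 ± 0.51, adjusted p = 0.0122). SLIT2, a guidance cue, had 0.0872, 0.362, 0.575 and 4.28 CPM in A549, against 18.6, 9.56, 22.2 and 13.8 CPM in MDA-MB-231 (change 3.58 ± 0.54, adjusted p = 0.016). The A549 side of these changes rested on 29 counts of RIMS2 and 119 of SLIT2 over the 4 libraries. CD109 had 141, 163, 103 and 128 CPM in A549, against 0, 0.184, 0 and 0.289 CPM in MDA-MB-231, and its change of -5.27 ± 1.02, adjusted p = 0.0461 rested on a few counts in MDA-MB-231. Without any single MDA-MB-231 library S100P, RIMS2, SLIT2 and CD109 did not pass (adjusted p from 0.0885 to 0.489). With MYC, CDH4, R-cadherin, had 18.4, 68.2, 0.329 and 1.04 CPM in A549, against 231.3, 177, 139 and 108 CPM in MDA-MB-231 (change -5.22 ± 0.23, adjusted p = 3.39e-05). ADAM19, a membrane protease, had 32.6, 54.7, 1.44 and 2.44 CPM in A549, against 119, 75.3, 91.9 and 61.9 CPM in MDA-MB-231 (change -4.15 ± 0.30, adjusted p = 0.000271), and HK2 a change of 4.83 ± 0.32, adjusted p = 0.000207. CDH4 and ADAM19 passed without any single library of the 2 lines. They were many times lower with MYC in A549 and less than 2-fold lower in MDA-MB-231. ZNF804A had 0, 0, 1.52 and 1.35 CPM in A549, against 32.8, 25.2, 29 and 24.3 CPM in MDA-MB-231. A549 had 0 counts of it with the control vector.

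In 272 tested genes A549 was at least 2-fold higher in 1 state and at least 2-fold lower in another; 65 of these had a mean of at least 5 CPM in 1 line, and none of the 272 passed the line test. TMTC1, a glycosyltransferase of cadherins, had 0.131, 0.0906, 10.9 and 46.3 CPM in A549, against 0.905, 1.24, 0.512 and 1.37 CPM in MDA-MB-231. It was lower in A549 with the control vector and higher with MYC. ABCA1, the cholesterol exporter, had 22.1, 50.9, 2.87 and 6.45 CPM in A549, against 33.6, 6.39, 15 and 4.33 CPM in MDA-MB-231, so A549 was higher in both tipifarnib pairs and lower in both DMSO pairs. ISG20, an interferon-induced exonuclease, had 10.8, 11.3, 44 and 26.4 CPM in A549, against 4.86, 40.3, 3.54 and 24.1 CPM in MDA-MB-231. The order of the lines in these genes differed between states.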

How the data were processed

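Whole-culture mRNA libraries of A549, MDA-MB-231 and SKOV3 were compared, 1 library for each line, vector and treatment. The values are raw counts per gene as deposited by the authors, in 1 table of 57820 genes and 5 summary rows (17.5% to 19.9% of counts, left out). The submitters' processing notes name TopHat2, HTSeq, DESeq2 and hg19. How strand and reads on several genes were treated is not given in the sources used here. Near-identical copies and antisense pairs are therefore uncertain.

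From the counts, 15264 genes were kept with filterByExpr and fitted with edgeR 4.0.16 (quasi-likelihood, TMM, state and line as terms, so that matched libraries were paired by their labels, 3 residual degrees of freedom) under R 4.3.3. P-values were adjusted by Benjamini-Hochberg over all genes tested. Ratios in single states used CPM with each library floored at 3 counts. Changes of the line difference used all 12 libraries with an own MYC and tipifarnib term for each line. Where the lower line had 3 counts or fewer in a library, no fitted line difference is given. Where it had 0 counts in all 4 libraries the fold is a bound against the floor. Fitted changes of the line difference with tipifarnib or MYC are given for such genes too, and their size is then uncertain. The fits were tested on simulated counts. Alternatives were other scalings, DESeq2 1.42.0, limma-voom 3.58.1, filters, blocks and left-out libraries.

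The members and the 29 gene lists were chosen with earlier results of these data known. Named genes are the 15 largest and 15 smallest mean ratios among genes 2-fold apart in all states with at least 10 CPM, and up to 6 passing members a list, with 2 of the minority direction and 2 not passing. They also hold MYC, FNTA, FNTB, the mutated or deleted genes, the 4 largest changes each way with at least 5 CPM, members of runs, and the 6 genes with the widest spread among those that switch order. HLA genes and sex-linked controls were left out, and some genes and 1 list are not reported here. VIM, ZEB1, SMARCA2, TXNRD1, IFIT1, IFIT2, ISG15, GCLM, HMOX1, AKR1C1, COL7A1, TGFA, AREG, BTC, EREG and the markers too low to test were named after their values were seen. Promoters are from RefSeq (GRCh38.p14), and gene order is from the GENCODE annotation by gene ID.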

Additional observations from a re-analysis of the deposited data

Results flagged for a closer look

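One library stood apart from the other 3 of its line in 4 of 40 groups of 4 values, measured as the gap to the nearest value over the whole range on the log2 scale for genes, with a critical value that chance passes in about 1 in 20 groups. AKR1B10 was highest in the A549 library with control vector and DMSO (ratio 0.876), as was PRAME (0.839). CEACAM6 was highest in the A549 library with MYC and tipifarnib (0.878). The share of counts in the 10 most abundant genes was 5.14% in the MDA-MB-231 library with MYC and DMSO, against 6.08% to 6.25% in the other 3 (0.847).

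The line difference, as log2 of A549 over MDA-MB-231, changed with tipifarnib by 5.12 in NOX5, 4.71 in DMBT1, 3.61 in RIMS2 and 3.58 in SLIT2. It changed by -5.27 in CD109, -4.87 in S100P, -4.73 in NECAB2 and -4.33 in CYP4F11. CYP4F11, a fatty acid hydroxylase, had 55.3, 42.9, 91.8 and 91.7 CPM in A549, against 0.0477, 0.966, 0.0427 and 0.831 CPM in MDA-MB-231, and both tipifarnib libraries of MDA-MB-231 were above its DMSO libraries. NOX5, an NADPH oxidase, had 0.131, 0.227, 0.0411 and 0.18 CPM in A549, against 12.3, 0.92, 7.9 and 0.47 CPM in MDA-MB-231. With MYC the line difference changed by 8.66 in LINC01433, 8.22 in ZNF804A, 8.15 in TMPRSS15 and 8.08 in TMTC1, and by -5.22 in CDH4, -4.68 in LHFPL6, -4.20 in KIRREL3 and -4.15 in ADAM19. All 16 passed edgeR's test of the difference itself. In CD109, LINC01433, ZNF804A and TMPRSS15 a line had 0 counts in 2 libraries, where the fitted size depends on the prior count. In NOX5, DMBT1, RIMS2, SLIT2, NECAB2, CYP4F11, TMTC1 and LHFPL6 a line had 3 counts or fewer in a library. The sizes of these changes also rest on few counts.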

How the results depend on the processing

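The count of genes that differed between A549 and MDA-MB-231 (9091) stayed within 1.5 times under other scaling, DESeq2, limma-voom, no low count filter, all 12 libraries and the DMSO libraries alone (6902 to 11365), and was 3225 when tested against a 2-fold difference. Without the state as a block that pairs the libraries it was 7606, and without 1 pair 7476 to 8532. Genes apart in all 4 states (3355) numbered 5123 at 1.5-fold and 1831 at 4-fold, 3628 to 3802 over 3 pairs and 2909 to 3638 otherwise. The tipifarnib count (277) was 603 with DESeq2 and 1097 without the filter, and 3 to 548 without 1 library. The MYC count (376) was 614 with DESeq2 and 1087 without the filter, and 35 to 464 without 1 library. The cause was not tested. At an unadjusted p under 0.05 the counts were 2704 and 2160.

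Of the 158 genes named in the text that passed (TGFA, AREG, BTC and EREG aside), 2002 of 2053 values under alternatives kept direction and call, 51 kept direction alone and 0 reversed. For the 18 named genes that did not pass, 32 values passed in the same direction and 13 changed sign. In DMSO alone, the log2 difference was -0.025 in ACTB, -0.91 in CAV1, -1.43 in ABCA1 and 0.032 in KRT19. With limma-voom, the log2 difference was -0.0057 in CAV1. Without the block, the log2 difference was -0.098 in CAV1. Without 1 pair it was -0.31 to 0.52 in CAV1, -0.32 to 3.27 in TMTC1, -0.78 to 0.93 in ABCA1, -0.31 to 0.047 in KRT19 and -0.20 to 1.56 in ISG20. Genes under the low count filter were tested in a fit without it, which called 9862 of 30298 genes.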

Other observations

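Cancer-testis genes, which are normally read in the germ line, were mostly silent: 18 of 25 measured members were too low to test in both lines, with at most 0.589 CPM. Of the 7 tested, 4 were higher in A549 and 2 were lower. MAGEA6 had 37.2, 30.2, 22.4 and 23.3 CPM in A549, against 6.34, 1.7, 1.07 and 0.108 CPM in MDA-MB-231 (adjusted p = 0.00175), and in MDA-MB-231 it was highest in the library with control vector and DMSO. MAGEA12 had 2.14, 1.59, 2.09 and 1.94 CPM in A549, against 0, 0, 0 and 0 CPM in MDA-MB-231 (at least 11.5-fold higher in every state and 15-fold on the mean over states, against a floor of 3 counts per library, adjusted p = 0.00239). MAGEA genes are close copies of each other on the X chromosome, so their split of reads is uncertain.

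Single loci had counts in A549 and next to none in MDA-MB-231. SNHG14, the long transcript of the imprinted SNRPN locus, had 74.6, 77.3, 107 and 93.4 CPM in A549, against 0.286, 0.046, 0.214 and 0.144 CPM in MDA-MB-231 (adjusted p = 5.14e-06), and the run of neighbouring genes from SNRPN held 6 genes, 5 of them with 3 counts or fewer in every MDA-MB-231 library. TMLHE, the first enzyme of carnitine synthesis, had 9.63, 10.6, 13.6 and 16.9 CPM in A549, against 0, 0.046, 0 and 0.108 CPM in MDA-MB-231 (adjusted p = 5.73e-05), in a run of 4 such genes. SKOV3 had counts of both, from 19.7 to 31.8 CPM of SNHG14 and from 11.3 to 14.6 CPM of TMLHE.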
